A study of Mus musculus with 4 samples.

Results

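The genes of the matrix proteases and their inhibitors were followed in RNA from samples labelled as primary colonic eosinophils of wild-type C57Bl/6 mice. The set held 35 of the 53819 gene symbols in the deposited count table and was chosen by name: 18 matrix metalloproteinases (MMPs), 4 tissue inhibitors of metalloproteinases (TIMPs), 8 ADAM and 5 ADAMTS proteases. There were 2 groups of 2 bulk libraries: mice given 3% dextran sulfate sodium (DSS) in the water, a chemical that damages the gut lining and is widely used to induce colitis, and control mice given water. Per the labels every library came from poly-A RNA of wild-type animals, while ages, the way the cells were sorted and any pooling of mice are not given in the sources used here.

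MMPs are zinc-dependent endopeptidases that cut collagens, laminins, proteoglycans and elastin. Most are secreted as inactive precursors and are held in check by TIMPs, which bind the active site. ADAM proteases sit in the membrane and release the outer parts of cell-surface proteins, whereas the secreted ADAMTS proteases cut proteoglycans and procollagens. In inflamed colon these genes are known from several cell types: stromelysins from stromal cells, matrilysin from epithelium, and neutrophil collagenase and gelatinase B from granulocytes.

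Library totals ran from 33015634 to 34126329 counts in DSS and from 30985905 to 32041207 in water. Eosinophil markers were low in all libraries: the 9 on the list summed to 51.0 and 128 CPM (read counts relative to library size, scaled by TMM) in DSS and to 3.62 and 29.4 CPM in water, and 4 of the 9 had reads in every library. Il5ra had no read in water replicate 1, Epx none in DSS replicate 1 and water replicate 1, Ear1 and Ear6 none outside DSS replicate 2, and Prg3 none in either water library. The 8 epithelial markers summed to 2616 and 6230 CPM in DSS and to 6933 and 4449 CPM in water, and the 9 fibroblast markers to 3653 and 7208 CPM in DSS and to 2217 and 4462 CPM in water. The 12 neutrophil markers summed to 1151 and 1637 CPM in DSS and to 41.7 and 154 CPM in water. In such bulk samples fewer cells of a type and less RNA per cell cannot be told apart.

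Of the 35 genes, 34 passed the filter on low counts; Mmp24 did not, with no read in either DSS library and 0 and 8 reads in the water libraries. Mmp8 and Adam28 passed through the DSS libraries alone, so counts over the genes that passed are descriptions. edgeR's quasi-likelihood test, adjusted over all 18788 genes tested, called 0 of the 34 (0.016% of all genes were called). At an unadjusted p under 0.05 it had 11 of them higher in DSS and 1 lower, where 5.06% of all genes were higher and 3.39% lower. The DESeq2 Wald test called 6, with Mmp3, Mmp10, Timp1, Adam12 and Adamts9 higher in DSS and Mmp7 lower; DESeq2 called 1.64% of its genes higher and 0.89% lower. limma-voom called 0, with 10 higher and 1 lower at an unadjusted p under 0.05 (5.11% and 3.04% of all genes). The libraries were fully separated with DSS higher for 16 of the 34 and with DSS lower for 6, against 20.8% and 18.7% of all genes. The median log2 fold change (DSS over water) was 0.46, beside -0.01 over all genes, and became 0.09 without water replicate 1 and 1.15 without water replicate 2. Water replicate 1 was the lowest of the 4 libraries for 24 of the 34 genes, whereas it was the lowest for 31.9% of all genes tested.

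**Figure D1:**
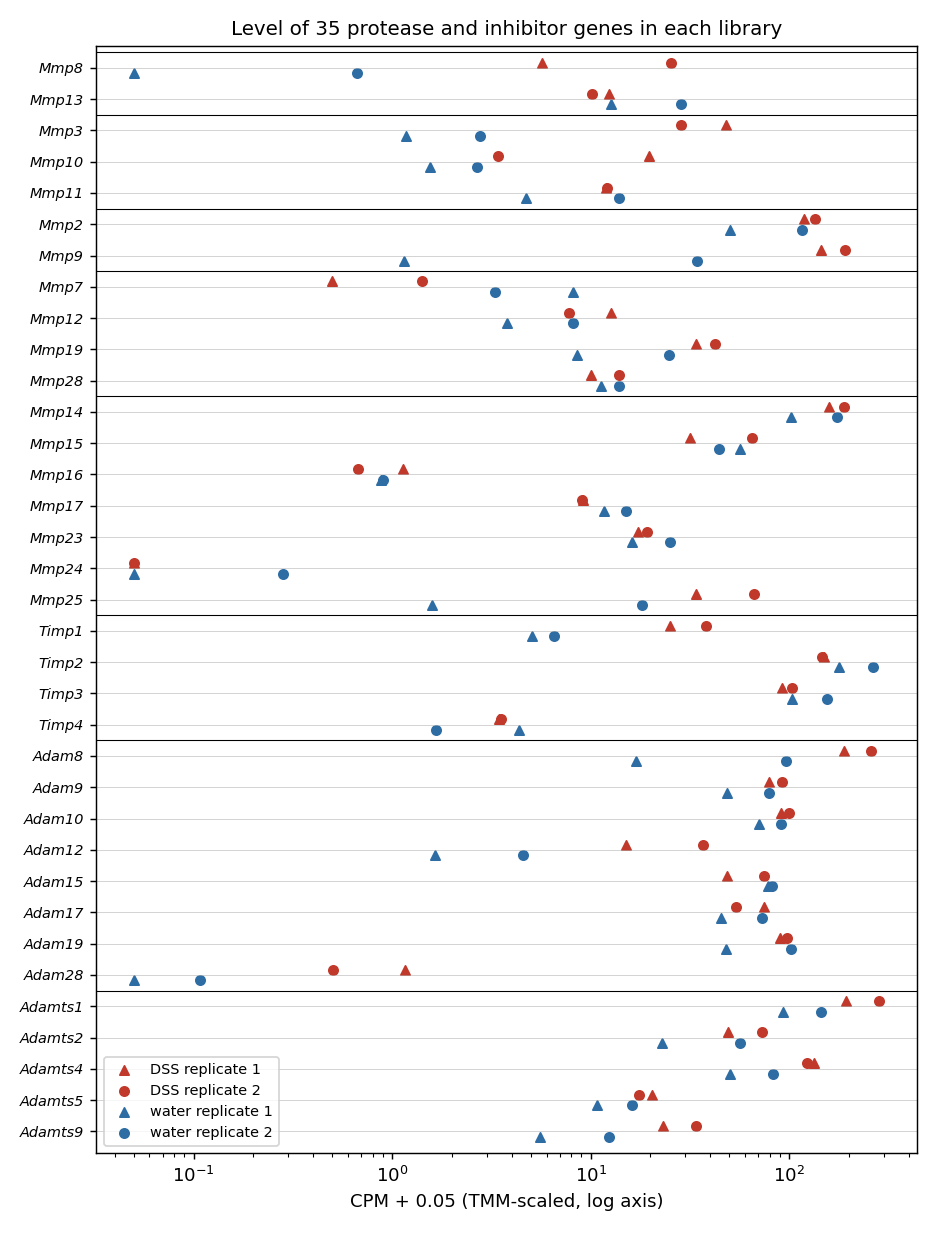
Level of each of the 35 genes in each library, as CPM + 0.05 on a log axis; triangles are replicate 1, circles replicate 2, DSS in red and water in blue, and black lines part the families. Mmp3, Timp1, Adam12 and Mmp9 have both DSS points to the right of both water points, and water replicate 1 is often the leftmost point.

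The stromelysins include the gene with the smallest adjusted p of the 34 under DESeq2. Mmp3 encodes stromelysin-1, a protease of stromal cells that cuts many matrix proteins and activates other MMP precursors. It had 48.1 and 28.6 CPM in DSS replicates 1 and 2 (1292 and 1005 reads), against 1.13 and 2.72 CPM in water replicates 1 and 2 (38 and 93 reads). Both DSS libraries were high and both water libraries near the bottom of the range, with no overlap. Its log2 fold change was 4.32 (SE 0.55; edgeR adjusted p = 0.247, DESeq2 adjusted p = 1.0e-12), and DESeq2 called it without each library in turn, with log2 fold changes between 3.81 without water replicate 1 and 5.10 without water replicate 2. Fibroblast marker sums overlapped between the groups. Per 100 CPM of those markers, Mmp3 stood at 1.32 and 0.397 CPM in DSS and at 0.0508 and 0.0609 CPM in water. On this scale Mmp13 was lower in DSS (0.336 and 0.141, against 0.57 and 0.637 in water). Mmp2 overlapped between the groups (3.27 and 1.88 in DSS, 2.28 and 2.61 in water). The marker sum includes Col1a1, Col1a2 and Col3a1, which are also described below as matrix substrates. Col3a1 alone had 1624 and 3395 CPM in DSS and 871 and 1850 CPM in water. Dcn, another marker, had 605 and 456 CPM in DSS and 443 and 654 CPM in water. Ratios on this scale, also that of Timp1 below, therefore depend on collagen reads and could differ with other markers. The part of fibroblasts in these values was not tested.

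Mmp10, stromelysin-2, had 19.6 and 3.39 CPM in DSS and 1.51 and 2.63 CPM in water. Most of its DSS signal came from DSS replicate 1, and DSS replicate 2 lay only just above water replicate 2. The log2 fold change was 2.47 (SE 0.86; edgeR adjusted p = 0.542, DESeq2 adjusted p = 0.0462). DESeq2 no longer called it without DSS replicate 1, where the log2 fold change was 0.71 (adjusted p = 1.0). It also lost the call without water replicate 1 (2.12, adjusted p = 0.552), and the value was 3.26 without DSS replicate 2. Mmp11, stromelysin-3, had 11.9 and 12.1 CPM in DSS and 4.68 and 13.9 CPM in water, so its groups overlapped.

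The collagenases differed from each other. Mmp13, the stromal collagenase of rodents, had 12.3 and 10.1 CPM in DSS and 12.6 and 28.4 CPM in water; DSS replicate 1 and water replicate 1 were nearly level (log2 fold change -0.87, SE 0.44, edgeR adjusted p = 0.679). Mmp3 therefore made up 79.7% and 73.8% of the reads of Mmp3 and Mmp13 together in DSS, and 8.19% and 8.72% in water, with 95% Wilson intervals at most 5.02 percentage points wide. An exact permutation test of 2 libraries against 2 cannot go below p = 0.333, so such shares are given with no test. Mmp8, neutrophil collagenase, had 151 and 892 reads in DSS (5.62 and 25.4 CPM) and 0 and 21 reads in water (0 and 0.613 CPM). The ratio of summed reads, scaled by library size, was 54.5 (exact 95% interval 35.4 to 88.3). This interval covers counting error alone and leaves out the spread between libraries, so it is too narrow for the group difference. The log2 fold change of edgeR was 5.64 (SE 1.42, edgeR adjusted p = 0.471, DESeq2 adjusted p = 0.351). This log2 fold change was 4.17 without DSS replicate 2. It is not given without water replicate 2, since the remaining water library had 0 reads. DESeq2 called Mmp8 without water replicate 1 and without water replicate 2.

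**Figure D2:**
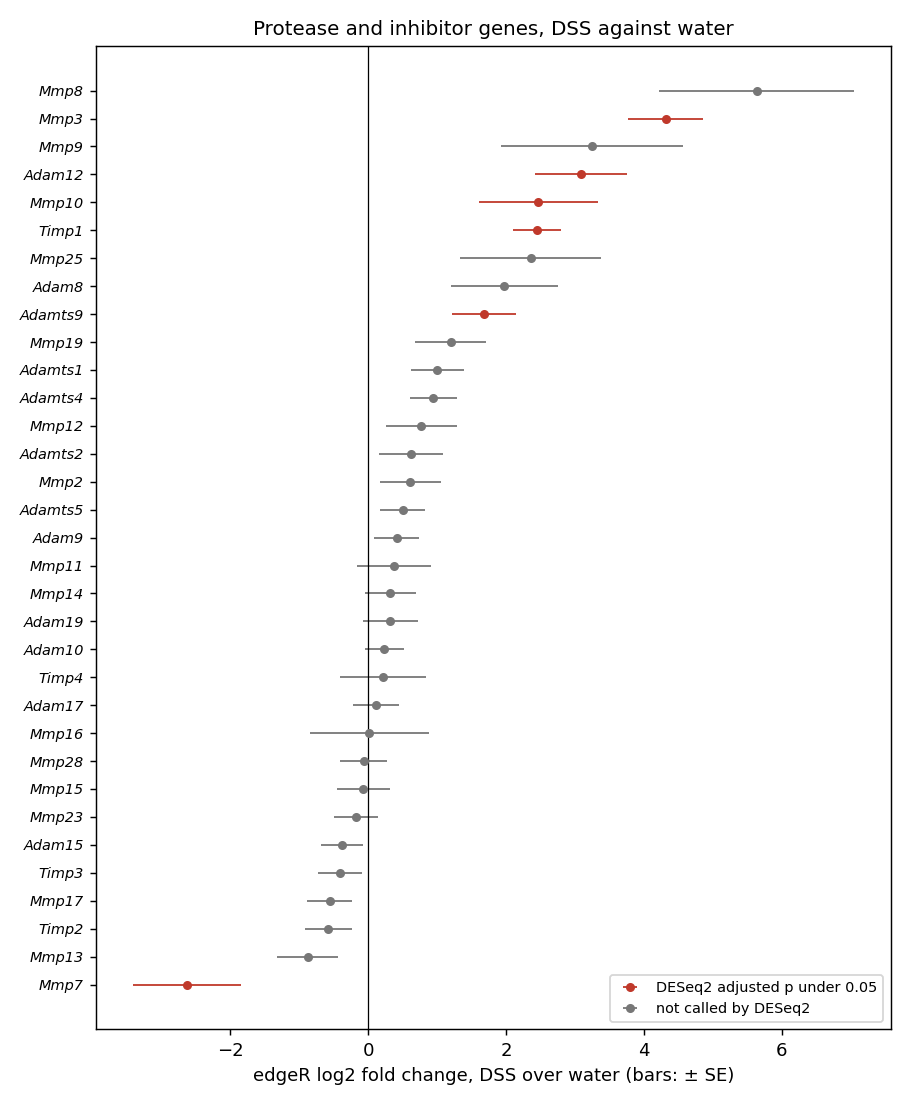
edgeR log2 fold change (DSS over water) with its SE for 33 genes, ordered by size; red marks the genes called by DESeq2. Mmp8 and Mmp3 stand at the top and Mmp7 at the bottom, and Adam28, whose fitted value rests on 2 reads in water, is left out.

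Mmp13, Mmp12, Mmp3, Mmp10, Mmp8 and Mmp7 lie in this order on the plus strand of chromosome 9, within 427 kb (7272514 to 7699585, GENCODE vM21 on GRCm38). Their fold changes along the cluster did not run in 1 direction. Mmp13 and Mmp7 at the ends had values below 0, and Mmp12, Mmp3, Mmp10 and Mmp8 had values above 0. Mmp1b, Mmp1a, Mmp27 and Mmp20, which are outside the followed set, lie in the same interval. The 250 bases before the RefSeq start (GRCm38.p6) are shown for Mmp13, Mmp3, Mmp10, Mmp8 and Mmp7, since members of the cluster had values of both signs. Capitals mark each TGANTCA, the core of the AP-1 site, a motif known from stromelysin and collagenase promoters and searched on both strands.
Mmp13, chr9:7272264-7272513, plus strand: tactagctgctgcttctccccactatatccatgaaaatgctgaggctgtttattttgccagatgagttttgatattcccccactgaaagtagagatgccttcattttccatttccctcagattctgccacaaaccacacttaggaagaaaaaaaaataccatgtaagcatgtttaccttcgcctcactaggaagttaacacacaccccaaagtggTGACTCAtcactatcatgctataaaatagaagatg
Mmp3, chr9:7445572-7445821, plus strand: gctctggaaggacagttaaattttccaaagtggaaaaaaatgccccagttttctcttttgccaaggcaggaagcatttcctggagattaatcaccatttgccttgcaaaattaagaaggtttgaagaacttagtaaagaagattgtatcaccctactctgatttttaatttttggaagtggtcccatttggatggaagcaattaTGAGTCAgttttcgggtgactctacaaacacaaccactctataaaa
Mmp10, chr9:7502092-7502341, plus strand: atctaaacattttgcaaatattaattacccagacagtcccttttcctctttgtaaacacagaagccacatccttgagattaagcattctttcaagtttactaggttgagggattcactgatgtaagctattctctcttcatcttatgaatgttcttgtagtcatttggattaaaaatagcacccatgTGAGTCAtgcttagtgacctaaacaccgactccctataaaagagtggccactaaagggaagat
Mmp8, chr9:7558179-7558428, plus strand: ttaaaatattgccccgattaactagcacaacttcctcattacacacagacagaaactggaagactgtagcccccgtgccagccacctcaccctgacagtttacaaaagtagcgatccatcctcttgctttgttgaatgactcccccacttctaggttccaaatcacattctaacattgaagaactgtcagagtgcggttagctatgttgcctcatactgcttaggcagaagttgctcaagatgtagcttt
Mmp7, chr9:7691840-7692089, plus strand: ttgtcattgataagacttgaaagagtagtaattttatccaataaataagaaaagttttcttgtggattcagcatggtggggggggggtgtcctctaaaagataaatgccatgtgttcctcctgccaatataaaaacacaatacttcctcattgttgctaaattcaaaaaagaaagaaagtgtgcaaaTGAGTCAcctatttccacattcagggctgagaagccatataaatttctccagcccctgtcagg

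The AP-1 core began at position -35 in Mmp13, -46 in Mmp3, -63 in Mmp10 and -63 in Mmp7, counted from the RefSeq start, and the Mmp8 window held none. The window of a second RefSeq start of Mmp7 held neither this core nor TATAAA. The AP-1 core was thus present before genes with values above 0 and before genes with values below 0. For Mmp12 this core stood at -44 of the second RefSeq start and not in the window of the first. TATAAA was found in the printed Mmp13, Mmp3, Mmp10 and Mmp7 windows and in none of the Mmp8 and Mmp12 windows. RefSeq windows were found for 25 of the 35 genes (30 windows), and 6 of these genes held TGANTCA in a window, Adam19 being the other. Of 32851 promoter windows of this length, 6.75% did. The members are counted by gene, with a match in any window, and the background by window, so such shares are not like for like. The AGGAAG core of ETS factors was present for 13 of the 25 (29.5% of all windows), GGGNNTTCC (NF-kB) for Adam19 (4.98%) and TTCNNNGAA (STAT) for Mmp23 (7.02%). No AP-1 core overlapped another of these motifs. A match of letters is a description of the window and not evidence of binding.

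**Figure D3:**
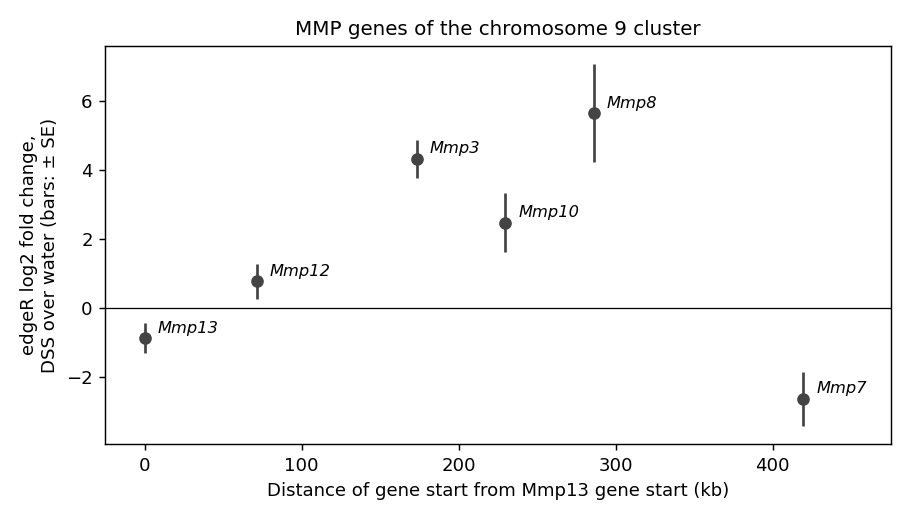
edgeR log2 fold change (DSS over water, bars ± SE) of the 6 chromosome 9 genes against the distance of each gene start from that of Mmp13, in kb. Mmp3, Mmp10 and Mmp8 in the middle lie above 2 and Mmp7 at the far end lies below -2.

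Among the gelatinases, Mmp9 and Mmp2 had different patterns. Mmp9, gelatinase B, is stored in granules of neutrophils and is also made by macrophages. It had 144 and 191 CPM in DSS (3877 and 6713 reads), against 1.10 and 34.3 CPM in water (37 and 1174 reads). The groups did not overlap, and the ratio between the replicates was wider in water than in DSS. The log2 fold change was 3.24 (SE 1.32; edgeR adjusted p = 0.585, DESeq2 adjusted p = 0.55); it was 2.25 without water replicate 1 (adjusted p = 0.43), and 7.26 without water replicate 2, where edgeR called it (adjusted p = 0.00581). DESeq2 called Mmp9 without water replicate 1 and without water replicate 2. Mmp2, gelatinase A, a product of fibroblasts, had 119 and 136 CPM in DSS and 50.5 and 116 CPM in water, so DSS replicate 1 stood just above water replicate 2 (log2 fold change 0.61, SE 0.44, edgeR adjusted p = 0.779).

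The other proteases known from neutrophils also had both DSS libraries above both water libraries. Mmp25, a membrane-anchored MMP of leukocytes, had 33.8 and 66.7 CPM in DSS and 1.54 and 18.02 CPM in water (log2 fold change 2.36, SE 1.02, edgeR adjusted p = 0.626). Adam8, a granulocyte and macrophage ADAM, had 190 and 258 CPM in DSS, against 16.98 and 96.8 CPM in water (log2 fold change 1.97, SE 0.78; edgeR adjusted p = 0.574, DESeq2 adjusted p = 0.0567). Without water replicate 2 edgeR called Mmp25 (log2 fold change 5.03, adjusted p = 0.0314) and Adam8 (3.73, adjusted p = 0.0394), and without water replicate 1 the values were 1.44 and 1.17. DESeq2 called these 2 genes only without water replicate 2. For Mmp8, Mmp9, Mmp25 and Adam8 alike, the lowest library was water replicate 1, then came water replicate 2, DSS replicate 1 and DSS replicate 2. Timp1, Adam12, Mmp2, Mmp19, Adamts1, Adamts9 and Adam10 stood in this order too, so it was not particular to the proteases known from neutrophils.

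The summed neutrophil markers stood in that same order, and so did the summed eosinophil markers and the summed mast cell markers. The order was therefore not particular to the neutrophil markers. The part of neutrophils in these values was not tested beyond the ratios given here, and that of eosinophils and mast cells was not tested. All 12 neutrophil markers had reads, and 7 had reads in all 4 libraries; Camp was at 0 in both water libraries, Ngp in water replicate 2, Cxcr2 and Stfa2l1 in water replicate 1, and Mpo in DSS replicate 1 and water replicate 1. Divided by the neutrophil marker sum of its own library, Mmp9 was 0.125 and 0.117 in DSS and 0.0263 and 0.223 in water, so the DSS ratios lay between the water ratios. The Mmp8 ratios were 0.00488 and 0.0155 in DSS and 0 and 0.00399 in water. The water ratios rest on 0 and 21 reads. DSS replicate 1 lay only just above water replicate 2, so the order of these 2 libraries is uncertain. The Mmp25 ratios were 0.0293 and 0.0408 in DSS and 0.037 and 0.117 in water, and the Adam8 ratios were 0.165 and 0.157 in DSS and 0.407 and 0.63 in water. Relative to these markers, Adam8 was therefore lower in both DSS libraries than in both water libraries.

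**Figure D4:**
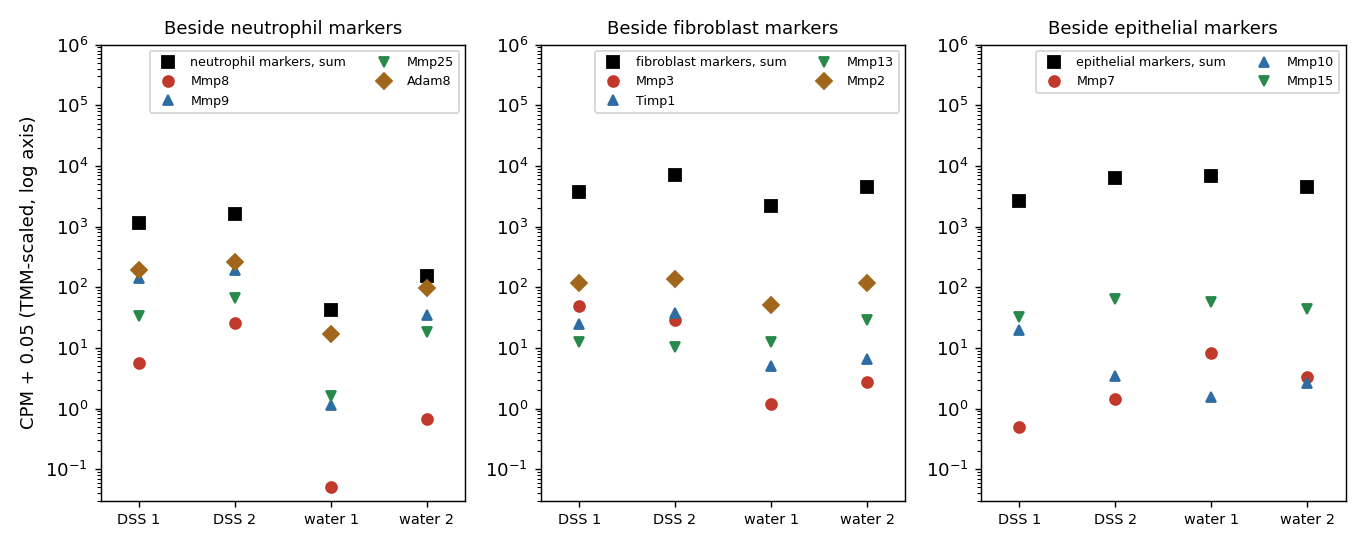
CPM + 0.05 (log axis) per library of proteases and inhibitors beside the summed CPM of neutrophil, fibroblast and epithelial marker lists (black squares). Mmp8, Mmp9, Mmp25 and Adam8 keep the library order of the neutrophil sum, as do Timp1 and Mmp2. Mmp3 and Timp1 are higher in DSS, and the fibroblast sums overlap between the groups.

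Of the other secreted MMPs, DESeq2 called Mmp7, which was lower in DSS. Mmp7, matrilysin, is an epithelial protease that in mouse small intestine, not the colon sampled here, is made by Paneth cells and activates defensins. It had 0.447 and 1.37 CPM in DSS (12 and 48 reads), against 8.06 and 3.27 CPM in water (272 and 112 reads). The groups did not overlap (log2 fold change -2.63, SE 0.79; edgeR adjusted p = 0.504, DESeq2 adjusted p = 0.0362), but DESeq2 no longer called Mmp7 without DSS replicate 1 (-2.05, adjusted p = 0.602). It also lost the call without water replicate 1 (-1.86, adjusted p = 1.0), and the value was -3.65 without DSS replicate 2. Epithelial marker sums overlapped between the groups. Per 1000 CPM of these markers Mmp7 stood at 0.171 and 0.219 CPM in DSS and at 1.16 and 0.735 CPM in water. The part of epithelial cells in these values was not tested.

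Mmp19, a stromal and vascular MMP, had 33.8 and 42.2 CPM in DSS and 8.45 and 24.7 CPM in water (log2 fold change 1.20, SE 0.51, edgeR adjusted p = 0.619). Mmp12, the macrophage elastase, had 12.6 and 7.71 CPM in DSS and 3.73 and 8.15 CPM in water, with overlapping groups. The 9 monocyte and macrophage markers summed to 792 and 891 CPM in DSS and to 736 and 1830 CPM in water, and these overlapped too. Mmp28, epilysin, had 10.05 and 13.9 CPM in DSS and 11.3 and 13.8 CPM in water.

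The 5 tested membrane-anchored MMPs other than Mmp25 had log2 fold changes between -0.56 (Mmp17) and 0.33 (Mmp14). Mmp14, the collagen-cutting protease that activates the Mmp2 precursor at the cell surface, had 158 and 189 CPM in DSS and 102 and 175 CPM in water. The groups overlapped (log2 fold change 0.33, SE 0.37, edgeR adjusted p = 0.873), and the value was -0.05 without water replicate 1. Mmp15 ranged from 31.8 to 64.7 CPM in DSS and from 44.2 to 56.8 CPM in water, and Mmp23 from 17.2 to 19.3 CPM in DSS and from 16.2 to 25.1 CPM in water. Mmp17 had 9.08 and 9.02 CPM in DSS and 11.6 and 15.01 CPM in water (log2 fold change -0.56, SE 0.32, edgeR adjusted p = 0.729). Mmp16 had between 22 and 29 reads in every library.

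The inhibitors split. Timp1, the cytokine-inducible inhibitor of secreted MMPs, had 25.1 and 37.9 CPM in DSS (675 and 1332 reads), against 5.04 and 6.48 CPM in water (170 and 222 reads). The water libraries were close to each other and both DSS libraries lay far above them (log2 fold change 2.45, SE 0.35; edgeR adjusted p = 0.281, DESeq2 adjusted p = 9.7e-06). DESeq2 called Timp1 without each library in turn, with log2 fold changes between 2.14 without DSS replicate 2 and 2.71 without DSS replicate 1. Per 100 CPM of fibroblast markers it stood at 0.688 and 0.526 CPM in DSS and at 0.227 and 0.145 CPM in water. The part of fibroblasts in these Timp1 values was not tested.

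Timp2, which also helps Mmp14 to activate the Mmp2 precursor, had 150.5 and 146 CPM in DSS and 179 and 264 CPM in water (log2 fold change -0.58, SE 0.34; edgeR adjusted p = 0.734, DESeq2 adjusted p = 0.704). Timp3, the matrix-bound inhibitor that also blocks Adam17, had 91.6 and 103 CPM in DSS and 103 and 155 CPM in water (log2 fold change -0.41, SE 0.33; edgeR adjusted p = 0.805, DESeq2 adjusted p = 0.922). Both genes had their DSS libraries below their water libraries, for Timp3 by less than 1 CPM at the closest pair, and no test called either. Timp4 had between 55 and 146 reads and overlapping groups. Timp1 accounted for 9.28% and 13.0% of TIMP reads in DSS and for 1.73% and 1.52% in water, with Wilson intervals at most 1.33 percentage points wide.

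**Figure D5:**
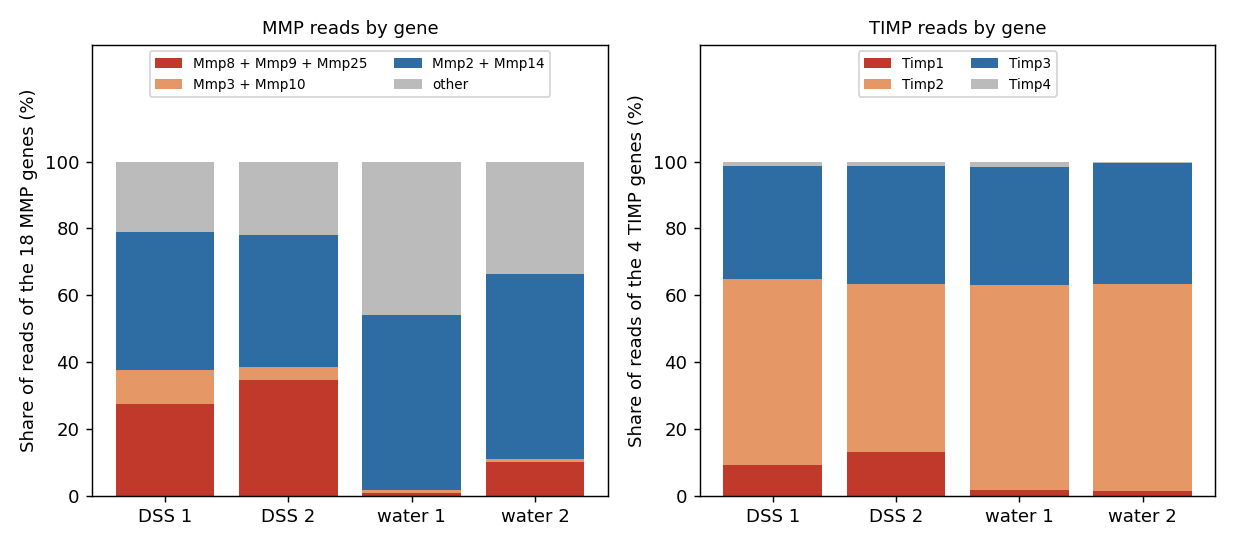
Share of the reads of the 18 MMP genes (left) and of the 4 TIMP genes (right) taken by each gene or gene group in each library, in percent. The share of Mmp8, Mmp9 and Mmp25 is 27.4% and 34.5% in DSS and 0.902% and 10.04% in water, and Timp1 is larger in both DSS bars.

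Taken over the 18 MMP genes, Mmp8, Mmp9 and Mmp25 held 27.4% and 34.5% of reads in DSS, against 0.902% and 10.04% in water. Mmp2 and Mmp14 held 41.5% and 39.5% in DSS and 52.3% and 55.2% in water; each Wilson interval of these shares was at most 1.97 points wide. On a per-length scale (CPM per kb of annotated exon), the MMP genes summed to 187 and 214 in DSS and to 73.3 and 132 in water, whereas the TIMP genes summed to 78.7 and 93.4 in DSS and to 64.9 and 94.2 in water. The summed TIMP level was thus 0.42 and 0.436 of the summed MMP level in DSS, and 0.885 and 0.714 of it in water. By group mean per length, Adam8 was the highest of the 35 genes in DSS (48.2 CPM per kb), followed by Mmp9 (47.4) and Adamts1 (45.2), and these neighbours were closer than their replicates. In water Timp2 was the highest (56.7 CPM per kb), followed by Mmp2 (24.8) and Mmp14 (23.2), and Mmp9 ranked 18.

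Of the ADAM proteases, Adam12 had the widest separation among those with at least 10 reads in every library. Adam12, an ADAM of mesenchymal cells, had 15.1 and 36.9 CPM in DSS, against 1.60 and 4.53 CPM in water (log2 fold change 3.08, SE 0.67; edgeR adjusted p = 0.401, DESeq2 adjusted p = 9.3e-05). The groups did not overlap, and the DESeq2 call ended without DSS replicate 2 (log2 fold change 2.32, adjusted p = 0.108), with 4.02 without water replicate 2. Adam28, a lymphocyte ADAM, had 30 and 16 reads in DSS and 0 and 2 in water, and edgeR did not call it (adjusted p = 0.566). The ratio of summed reads was 25.2 (exact 95% interval 6.60 to 214, which leaves out the spread between libraries). The 5 T cell markers summed to 97.8 and 49.6 CPM in DSS and to 21.8 and 58.7 CPM in water, and the 6 B and plasma cell markers to 36187 and 7467 CPM in DSS and to 6933 and 6014 CPM in water; their part in the Adam28 reads was not tested.

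The sheddases that act on Notch, cadherins and TNF stayed near each other between groups. Adam10 had 91.0 and 99.5 CPM in DSS and 70.7 and 90.8 CPM in water (log2 fold change 0.24, SE 0.28, edgeR adjusted p = 0.877). Adam17, which releases TNF and EGF receptor ligands, had 75.0 and 54.1 CPM in DSS and 45.6 and 73.4 CPM in water (log2 fold change 0.12, SE 0.34, edgeR adjusted p = 0.962). Adam9 and Adam19 had overlapping groups, with log2 fold changes of 0.41 and 0.32. Adam15 had 48.7 and 74.7 CPM in DSS and 78.4 and 82.4 CPM in water (log2 fold change -0.38, SE 0.31, edgeR adjusted p = 0.805).

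The 5 ADAMTS genes all had log2 fold changes above 0, as did 9239 of the 18788 genes tested. For 4, both DSS libraries were above both water libraries (20.8% of all genes). Adamts9, a proteoglycan-cutting protease, had 23.1 and 34.0 CPM in DSS, against 5.48 and 12.3 CPM in water (log2 fold change 1.68, SE 0.46; edgeR adjusted p = 0.473, DESeq2 adjusted p = 0.0417). The DESeq2 call of Adamts9 held without water replicate 2 alone (log2 fold change 2.38, adjusted p = 0.003) and ended without water replicate 1 (1.20, adjusted p = 0.755), DSS replicate 1 (adjusted p = 0.169) or DSS replicate 2 (adjusted p = 0.371). Adamts1, a versican-cutting protease, had 194 and 285 CPM in DSS and 93.2 and 145 CPM in water (log2 fold change 1.01, SE 0.39; edgeR adjusted p = 0.572, DESeq2 adjusted p = 0.221). Adamts4, an aggrecan- and versican-cutting protease, had 134 and 124 CPM in DSS and 50.6 and 82.7 CPM in water (log2 fold change 0.95, SE 0.34; edgeR adjusted p = 0.548, DESeq2 adjusted p = 0.259).

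Adamts5 had 20.4 and 17.6 CPM in DSS and 10.7 and 16.1 CPM in water, a gap smaller than that between the water libraries. Adamts2, which trims procollagen, had 49.1 and 73.1 CPM in DSS and 22.9 and 56.5 CPM in water, and its groups overlapped. Annotated exons of 14 of the 35 genes overlap exons of another gene on the opposite strand, among them Mmp7, Mmp11, Mmp12, Timp3, Timp4, Adam8, Adam15, Adam17, Adamts4 and Adamts9. Reads of such pairs cannot be told apart here, because a strand setting is not given in the sources used.

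Other genes of matrix proteolysis were described from lists of further proteases, activators, substrates and inducers. Of 91 such genes, 81 were tested; edgeR called 0 over all genes (17 higher and 1 lower at an unadjusted p under 0.05, against 5.06% and 3.39% of all genes), and limma-voom called 0. DESeq2 called 7 of them higher and 1 lower, against 1.64% and 0.89% of its genes. A2m, 1 of the 7, had reads in the DSS libraries alone. The cytokines known to induce matrix proteases were above 0 for 10 of 10, where 9239 of the 18788 genes tested were. Both DSS libraries were above both water libraries for 9, as for 20.8% of all genes. This list was chosen with earlier results of these data known, so its counts are descriptions. Il6 had 128 and 108 CPM in DSS and 22.9 and 31.7 CPM in water (log2 fold change 2.11, SE 0.30; edgeR adjusted p = 0.281, DESeq2 adjusted p = 1.1e-05). Il11, which like Il6 signals through gp130, had 8.04 and 6.86 CPM in DSS and 1.81 and 0.934 CPM in water (log2 fold change 2.44; DESeq2 adjusted p = 0.00685). Lif, another cytokine of that family, had 40.5 and 42.5 CPM in DSS and 11.5 and 18.8 CPM in water (DESeq2 adjusted p = 0.0301). DESeq2 called Il6 without each library in turn, but Il11 only without water replicate 1 and Lif only without water replicate 2. Il1b had 1923 and 1123 CPM in DSS and 205 and 519 CPM in water (log2 fold change 2.07, SE 0.59; edgeR adjusted p = 0.49, DESeq2 adjusted p = 0.00265), a DESeq2 call lost without DSS replicate 1 and without water replicate 1.

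Among activators and other inhibitors, 9 of 19 tested genes were above 0. Furin, the convertase that activates membrane-anchored MMP and ADAM precursors, had 144 and 126 CPM in DSS and 66.0 and 84.0 CPM in water (log2 fold change 0.85, SE 0.30; edgeR adjusted p = 0.542, DESeq2 adjusted p = 0.283). Pcsk6, a related convertase, had 15.97 and 6.80 CPM in DSS and 28.6 and 42.0 CPM in water (log2 fold change -1.63, SE 0.47; edgeR adjusted p = 0.49, DESeq2 adjusted p = 0.0499), and of the fits without 1 library DESeq2 called it only in the fit without DSS replicate 1. Pcsk5 had 39.7 and 56.1 CPM in DSS and 57.2 and 60.2 CPM in water. A2m, the gene of the plasma protease inhibitor alpha-2-macroglobulin, had 46 and 30 reads in DSS and none in water, at least 14.5-fold higher against a floor of 3 counts per library. It passed the filter on low counts through the DSS libraries alone, so its fold and its call are descriptions. DESeq2 called A2m (adjusted p = 0.006), and of the fits without 1 library only in the fit without water replicate 2.

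Matrix substrates were above 0 for 14 of 17 tested genes, as were 9239 of the 18788 genes tested. Groups overlapped for 15 of the 17, as for 60.5% of all genes. Col1a1, a chain of type I collagen, had 508 and 1703 CPM in DSS and 320 and 751 CPM in water (log2 fold change 1.05, SE 0.70, edgeR adjusted p = 0.766). Col3a1 had 1624 and 3395 CPM in DSS and 871 and 1850 CPM in water. Of the 18 shed cell-surface substrates, DESeq2 called Ereg, an EGF receptor ligand released by Adam17, and Il1r2, the interleukin-1 decoy receptor. Ereg had 108 and 111 CPM in DSS and 13.7 and 28.2 CPM in water (log2 fold change 2.39, SE 0.40; edgeR adjusted p = 0.331, DESeq2 adjusted p = 1.6e-05). Il1r2 had 163 and 143 CPM in DSS and 9.51 and 45.4 CPM in water (log2 fold change 2.48, SE 0.71; edgeR adjusted p = 0.49, DESeq2 adjusted p = 0.00268), and DESeq2 lost this call without DSS replicate 1. The Ereg call held in all 4 DESeq2 fits that left out 1 library. Tnf, the best-known Adam17 substrate, had 95.7 and 126 CPM in DSS and 16.9 and 71.6 CPM in water (log2 fold change 1.33, SE 0.65; edgeR adjusted p = 0.672). Adam33, an ADAM of smooth muscle and fibroblasts, had 14.0 and 8.79 CPM in DSS and 21.0 and 19.3 CPM in water (log2 fold change -0.82, SE 0.34, edgeR adjusted p = 0.594). Of 14 other ADAMTS genes 8 were above 0 and none was called, and of the 5 other MMP genes Mmp27 alone was tested, with 20 and 27 reads in DSS and 0 and 24 in water. Adamdec1, an ADAM-like protease of gut macrophages, had 313 and 156 CPM in DSS and 90.2 and 510 CPM in water, so its water libraries spanned the DSS values.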

How the data were processed

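Poly-A RNA was sequenced from 4 libraries, and the authors deposited 1 table of raw read counts per gene symbol, with no normalization. Aligners (HISAT2, STAR), counters (HTSeq, featureCounts), DESeq2 and the builds GRCm38 and mm10 are listed in the submitters' processing notes, without saying which made it. Filters, strand setting and annotation release are not given in the sources used. Of counts from 1 to 10, between 70.5% and 73.2% were even in each library, so the counts may not be numbers of single fragments. All intervals cover counting error only. Symbols were matched to GENCODE vM21 for coordinates and exon lengths (92.8% matched), and promoter windows came from RefSeq (GRCm38.p6).

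Genes were kept by edgeR's filterByExpr (about 10 counts or more in at least 2 libraries, and 15 in total). In all, 18788 genes passed and held 99.4% of counts. DSS was compared with water by edgeR's quasi-likelihood test (edgeR 4.0.16, R 4.3.3) after TMM scaling, with Benjamini-Hochberg adjustment and a threshold of 0.05. DESeq2 1.42.0 and limma-voom (limma 3.58.1) were alternatives, beside other scalings, filters, a replicate block and leaving out each library. An SE is the log2 fold change divided by the square root of F. The common biological coefficient of variation was 0.432. The labels do not state whether replicates are different mice; the p-values reflect library-to-library spread, which may be technical.

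The genes and lists were chosen with earlier results of these data known. All 35 genes are named or counted; fold changes with SE and adjusted p go to those called by edgeR or DESeq2, those with separated groups and an unadjusted edgeR p under 0.05, and the 5 with the highest mean CPM. From the other lists, called genes and the first in list order could be named; Mmp27, and the SE and adjusted p of Mmp2, Mmp13, Mmp17, Mmp19, Mmp25, Adam10, Adam15 and Adam17, were added after their values were seen. The crossed replicate block and the DESeq2 fits without 1 library were chosen after seeing the data.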

Additional observations from a re-analysis of the deposited data

How the results depend on the processing

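Over all genes, edgeR called 3. DESeq2 called 497, limma-voom 0, the fit with no count filter 1051 and, after seeing the data, a crossed replicate block 44; leaving out 1 library gave 3 to 196. Of the protease and inhibitor genes edgeR called 0, DESeq2 6, the crossed block 1 (Mmp3) and the unfiltered fit 11, with 0 to 4 when 1 library was left out; the 4 came without water replicate 2. Which of them DESeq2 called also changed when 1 library was left out, and its calls over all genes in those fits are not given here. Of the other listed genes edgeR called 0, DESeq2 8, the crossed block 1 (Il6) and the unfiltered fit 15, with 0 to 6 without 1 library. The median log2 fold change of 0.46 ran from 0.0935 to 1.15 without 1 library. A group left with 1 library was assumed to vary like the other group. The cause of these differences was not tested.

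Replicate numbers gave no sign of pairing: the deviations of same-numbered libraries correlated at -0.10. With the replicate block, 0 genes were called over all genes, 0 of the protease and inhibitor genes and 0 of the other listed genes, and the median was 0.55. Signs changed in some alternative for 9 of 34 genes (17 of 440 values over 13 alternatives), none of which was called by edgeR or DESeq2: Mmp11, Mmp14, Mmp15, Mmp16, Mmp23, Mmp28, Timp4, Adam17 and Adam19. With 2 libraries a group, low genes such as Mmp7, Mmp16 and Adam28 are limited by read number as well as by the spread.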
